A study of Homo sapiens with 8 samples.

Results

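EGR1, EGR2, EGR3, FOS, FOSL1, FOSL2, JUN, JUNB, JUND and ATF3 were followed by gene symbol through the RNA-seq of crowded and ETV4-depleted human embryonic stem cells (hESCs). All 10 were among the 20344 genes that appear in either of the deposited tables. The table of the crowding experiment held 9 of them among 19472 genes, since EGR3 had no row there, and the table of the ETV4 knockdown (KD) experiment held all 10 among 19551 genes. These genes and the gene lists used below were chosen by symbol, with earlier results of these data known. The shares of genes called among them thus describe these sets and are not independent evidence. EGR1 was selected on its measured rise in both experiments, so its values are given as a description without a test. Each of the others was set beside it.

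These genes encode transcription factors. Many of them are switched on within minutes of a stimulus, from promoters and enhancers that are already poised and without the need for new protein. EGR proteins bind GC-rich DNA through zinc fingers, whereas FOS, JUN and ATF proteins pair through leucine zippers into AP-1 dimers that bind the TPA-response element or the related cyclic AMP-response element. ERK, JNK and p38 kinases and the serum response factor SRF with its ETS partners feed the induction of many of them. Such genes are best known for short bursts of transcription, so that their level in RNA from a whole culture is an average over cells at different points of such bursts.

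The cells were H9 (WiCell WA09), an established human embryonic stem cell line kept on Matrigel in mTeSR1 or TeSR-E8. In the crowding experiment, 2 libraries labelled small came from hESCs at low density and 2 labelled crowded came from hESCs at high density, for which the cells could attach only to small drops of Matrigel. In the knockdown experiment, 2 libraries came from hESCs with a control hairpin (shControl, labelled Ctrl) and 2 from hESCs with a hairpin against ETV4 (shETV4, labelled ETV4 KD), an ETS factor of the PEA3 group. All cells of the knockdown experiment thus carried a hairpin vector, and the sources used here do not name the ETV4 hairpin or say whether the libraries share it. The study states in general that its experiments were repeated independently, but the sources used here do not tie the libraries of a group to separate cultures, so p-values measure the spread between these libraries, which may be technical.

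The libraries held 50359703 to 62410168 counts on genes. ETV4 itself went from 90.8 and 95.1 FPKM in the Ctrl libraries to 45.6 and 40.9 FPKM in the ETV4 KD libraries (log2 fold change -1.15 ± 0.07 SE). The label of pluripotent cells was met in all 8 libraries, with POU5F1 at group means of 1135 and 1070 FPKM (low and high density) and 1099 and 1347 FPKM (shControl and shETV4), and the summed level of 14 pluripotency markers between 3476 and 4285 FPKM. The summed level of amnion and trophoblast markers, 8 of 14 of which had a row, was 10.98 to 11.51 FPKM at low density and 16.6 to 17.7 FPKM at high density, and it overlapped between the Ctrl (14.6 to 15.8 FPKM) and ETV4 KD (14.55 to 14.65 FPKM) libraries. That of mesendoderm markers, 10 of 14 in the crowding table and 9 of 14 in the other, was 1.83 to 2.14 FPKM at low density, 2.76 to 3.04 FPKM at high density, 2.25 to 2.92 FPKM with shControl and 2.49 to 2.73 FPKM with shETV4. That of neuroectoderm markers, 7 of 12, was 1.70 to 2.01, 1.17 to 1.29, 1.83 to 2.097 and 0.704 to 0.751 FPKM in the same order. Single genes weighed most in these shifts, given as group means. With crowding they were TBX6 (0.477 to 1.67 FPKM) for mesendoderm and SIX6 (1.05 to 0.243 FPKM) for neuroectoderm. For amnion and trophoblast they were TFAP2C (5.87 to 9.31 FPKM) and IGFBP3 (2.03 to 3.37 FPKM). After ETV4 KD it was DCX (1.55 to 0.397 FPKM) for neuroectoderm. With crowding, 4 mesendoderm markers tested lay above 0 in log2 fold change and 3 below, and 3 neuroectoderm markers above and 3 below. Of the amnion and trophoblast markers tested there, 6 lay above and 1 below. After ETV4 KD, 1 neuroectoderm marker lay above and 3 below. The part of these cells in the results was not tested, and in RNA from whole cultures, fewer cells of a type and less RNA per cell cannot be told apart.

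EGR1 was the member with the largest increase in both experiments. FPKM, the fragments mapped to a gene scaled by transcript length and by the mapped reads of the library, was 1.13 and 1.20 for EGR1 at low density, against 3.18 and 3.04 when crowded. With shControl it was 2.01 and 2.08 FPKM, and with shETV4 it was 31.9 and 23.3 FPKM. Both crowded libraries lay above both low-density libraries, and both ETV4 KD libraries lay above both Ctrl libraries. The log2 fold change was 1.36 ± 0.13 (SE) after crowding, a 2.56-fold difference, and 3.76 ± 0.14 (SE) after ETV4 KD, a 13.5-fold difference. These differences rested on 204 to 683 reads per library in the crowding experiment and on 380 to 6138 reads in the knockdown experiment. The EGR1 gene (plus strand of chromosome 5, 137801168 to 137804992 in GRCh37) overlaps no other annotated gene.

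The promoters of EGR1, EGR2, FOS and JUN are shown because these genes parted in the experiments: EGR1 and, by less, EGR2 lay above their controls in both, JUN fell in both, and FOS fell in one and rose in the other. The 150 bases before the annotated start are from RefSeq on GRCh38.p14, a build that differs from that of the expression tables, and are written 5′ to 3′ on the strand of the gene. For EGR2, with 3 annotated starts, the window that held a CArG box is shown, and the windows of its other starts held no match to the motifs searched. Since genes were picked by response and this window by its motif, the display cannot relate motifs to responses. Capitals mark matches to the motifs searched.
EGR1, chr5:138465329-138465478, plus strand: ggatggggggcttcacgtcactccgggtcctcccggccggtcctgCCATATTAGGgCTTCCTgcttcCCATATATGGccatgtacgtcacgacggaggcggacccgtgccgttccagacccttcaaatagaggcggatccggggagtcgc
EGR2, chr10:62816367-62816516, minus strand: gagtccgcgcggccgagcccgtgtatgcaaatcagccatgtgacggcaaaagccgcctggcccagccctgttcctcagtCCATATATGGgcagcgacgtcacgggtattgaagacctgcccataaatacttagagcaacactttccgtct
FOS, chr14:75278678-75278827, plus strand: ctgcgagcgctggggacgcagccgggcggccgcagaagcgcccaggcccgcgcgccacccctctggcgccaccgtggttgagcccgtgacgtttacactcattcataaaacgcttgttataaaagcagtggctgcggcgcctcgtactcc
JUN, chr1:58784048-58784197, minus strand: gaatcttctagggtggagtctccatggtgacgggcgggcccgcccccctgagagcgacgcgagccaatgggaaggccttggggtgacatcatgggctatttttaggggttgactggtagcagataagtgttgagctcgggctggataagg
The EGR1 stretch held 2 CArG boxes, the element that SRF binds, as CCATATTAGG and CCATATATGG, with a match to AGGAAG on the opposite strand between them. The EGR2 stretch held 1 CArG box, CCATATATGG. The FOS and JUN stretches held no match to the motifs searched, which says only that these letters are not in the windows.

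The motifs were searched on both strands from 250 bases before to 50 bases after the start, in the 11 windows of the 8 members with a RefSeq promoter entry that could be shown and in 35116 windows of all genes. EGR3 and FOSL1 had no window among the 11, so nothing is said of their promoters. A CArG box (CC, then 6 bases of A or T, then GG) was in 1.29% of all windows and, among the members, in that of EGR1 and in a single window of EGR2. AGGAAG, an element that ETS factors bind, was in 33.6% of all windows and in those of EGR1, FOSL2 and JUNB. The AP-1 element TGANTCA was in 7.71% of all windows and in that of FOSL2, and the cyclic AMP-response element TGACGTCA was in 1.85% and in that of JUND. The EGR elements GCGTGGGCG and GCGGGGGCG were in 0.795% and 5.07% of all windows and in none of the members' windows. No match overlapped that of another motif. A match describes letters and is not evidence of a bound site.

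After crowding, 4 of the 8 members tested besides EGR1 were downregulated and 0 were upregulated, so no other member was called in the direction of EGR1. A call required an adjusted p below 0.05 by edgeR's quasi-likelihood test, over all 17672 genes, and an absolute log2 fold change over 0.5. By this rule, 16.1% of all genes were called in either direction, 10.7% upwards and 5.47% downwards. At an unadjusted p below 0.05 by edgeR and with no minimum fold change, 1 of the 8 was higher and 5 were lower. Even at an adjusted p below 0.05, 39.7% of all genes passed with no minimum fold change. Counts at an unadjusted p, here and below, are thus only descriptions, and their share over all genes is not given. DESeq2 called 0 of the 8 up and 4 down. The FPKM of the densities did not overlap for any of the 8 members, 3 of which were higher and 5 lower when crowded, but the same held for 70.2% of all genes tested, 41.2% upwards and 29% downwards.

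Of the EGR family, EGR2, a zinc-finger factor known from hindbrain segmentation and myelination, went the way of EGR1 but missed the threshold. Its FPKM was 0.289 and 0.328 at low density against 0.468 and 0.538 when crowded, from 50 to 115 reads per library. The crowded libraries were both higher (log2 fold change 0.63, 95% interval 0.09 to 1.17, adjusted p = 0.0582 by edgeR). EGR2 passed the threshold without crowded replicate 1 (log2 fold change 0.72, adjusted p = 0.0458 by edgeR) but not in the other 3 fits that left out 1 library (adjusted p from 0.121 to 0.268) nor by DESeq2 (adjusted p = 0.161). EGR3, which acts in muscle spindle and lymphocyte development, was not analysed at the densities. The EGR2 gene (minus strand of chromosome 10, 64571756 to 64578927 in GRCh37) shares its span with an annotated long non-coding RNA of the same strand.

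FOS, FOSL1 and FOSL2 all fell at high density. FOS, the founding partner of JUN in AP-1, was at 1.88 and 1.82 FPKM at low density and 1.46 and 1.23 FPKM in crowded hESCs. FOSL1, also called FRA1 and a long-lived target of ERK output, was at 5.05 and 4.89 FPKM against 2.75 and 3.37 FPKM. FOSL2, or FRA2, was lower in level, at 0.541 and 0.527 FPKM against 0.295 and 0.414 FPKM. In each of these genes both crowded libraries lay below both low-density libraries. The log2 fold changes by edgeR were -0.52 ± 0.18 (SE) for FOS (adjusted p = 0.0241), -0.76 ± 0.14 for FOSL1 (adjusted p = 1.39e-04) and -0.65 ± 0.20 for FOSL2 (adjusted p = 0.0125). The call of FOS stood closest to the threshold: leaving out either low-density replicate or crowded replicate 2 ended it, with adjusted p between 0.0823 and 0.136 by edgeR. FOSL2 missed the threshold without low-density replicate 1 (adjusted p = 0.0593) and without crowded replicate 1 (log2 fold change -0.43, adjusted p = 0.0983 by edgeR), whereas FOSL1 was called in each of the 4 fits that left out 1 library.

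Of the JUN family, JUN was the gene called at high density. JUN, the partner that gives AP-1 much of its transactivating strength, was at 5.20 and 5.24 FPKM at low density and 3.91 and 2.81 FPKM in crowded hESCs. The crowded libraries were both lower but also stood apart from each other (log2 fold change -0.70 ± 0.13 SE, adjusted p = 6.51e-04 by edgeR). Without crowded replicate 2, the lower of them, the log2 fold change was -0.47, under the size required. JUNB, often described as a brake on JUN, was at 1.86 and 2.40 FPKM against 2.85 and 2.61 FPKM, and its log2 fold change of 0.30 (95% interval -0.05 to 0.64, adjusted p = 0.172 by edgeR) did not pass the test. JUND, the most steadily transcribed of the 3, was at 21.6 and 22.8 FPKM against 20.4 and 20.3 FPKM. Its log2 fold change of -0.18 ± 0.07 (SE) had an adjusted p of 0.0299 by edgeR but was under the size required for a call.

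ATF3, a stress-induced bZIP factor that can repress as a homodimer, was at 5.66 and 5.68 FPKM at low density and 6.02 and 6.76 FPKM at high density. The difference did not pass the test (log2 fold change 0.12, 95% interval -0.09 to 0.33, adjusted p = 0.375 by edgeR). JUNB shares part of its span, chromosome 19 of GRCh37 from 12902300 to 12904129, with HOOK2 on the opposite strand, and FOSL2, on chromosome 2 from 28615315 to 28640184, shares its span with FOSL2-AS1. The sources used here do not say if counting took account of strand, so reads of such pairs cannot be told apart.

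**Figure D1:**
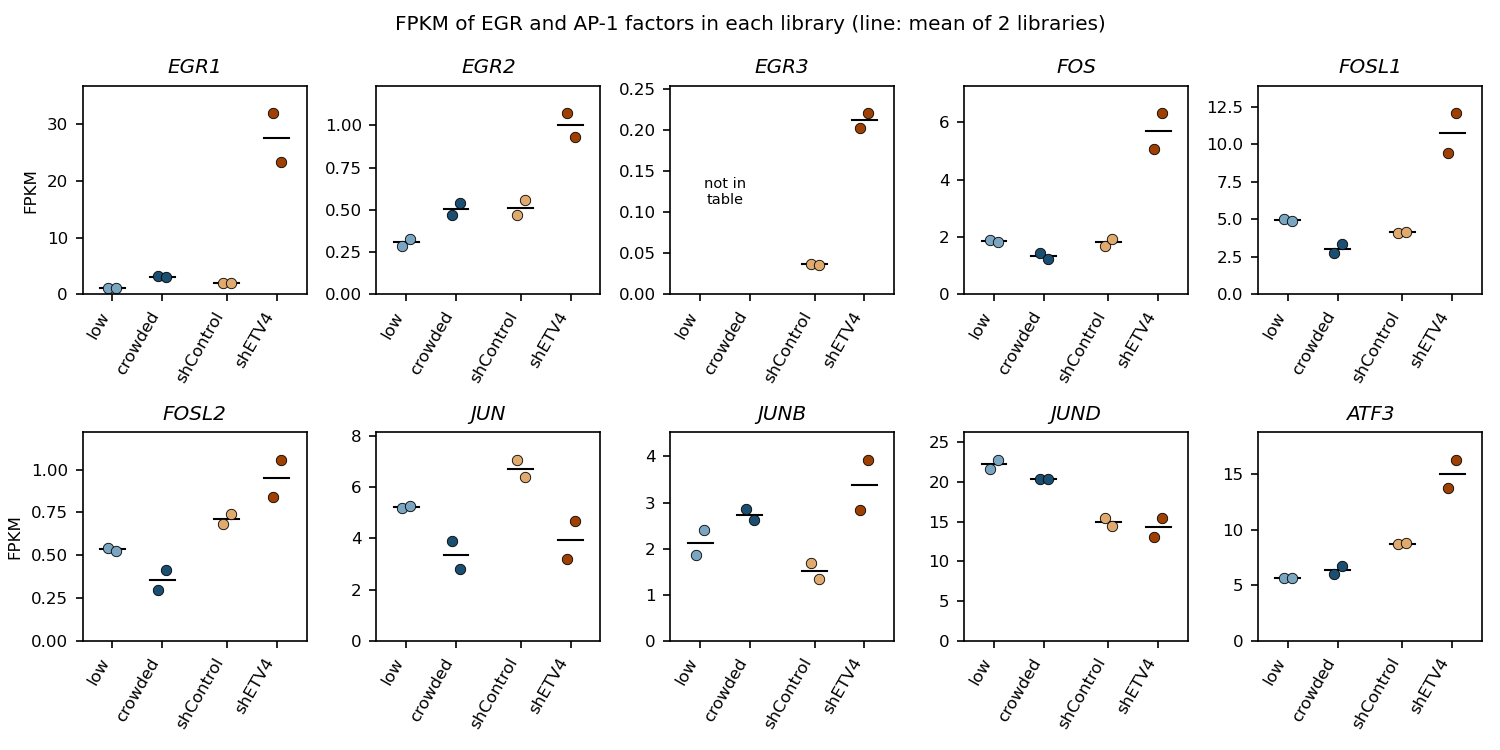
FPKM of each member in each of the 8 libraries, with 1 panel per member and 1 point per library. Each panel has its own linear axis, so heights do not compare between panels. EGR3 has no row in the crowding table. EGR1 stands at 31.9 and 23.3 FPKM in the ETV4 KD libraries, above every other member there, while JUND is the highest member in the other 3 groups.

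ETV4 KD gave another picture, in which most of the members rose with EGR1. Of the 9 members tested besides EGR1, 6 were upregulated and 1 was downregulated, against 5.88% and 7.1% of the 17879 genes tested (13% in either direction). The FPKM of shControl and shETV4 did not overlap for 8 of the 9, with 7 higher and 1 lower, as was the case for 63.3% of all genes, 31.8% upwards and 31.5% downwards.

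EGR3 and EGR2 were both upregulated, from low levels. EGR3 was at 0.0371 and 0.0358 FPKM with shControl and at 0.203 and 0.221 FPKM with shETV4, on 11 and 10 reads against 57 and 59 reads. The log2 fold change of EGR3 was 2.47 ± 0.38 (SE, adjusted p = 0.00447 by edgeR), and its small counts leave a wide 95% interval of 1.60 to 3.33. EGR2 was at 0.469 and 0.559 FPKM against 1.07 and 0.933 FPKM (log2 fold change 0.95 ± 0.22 SE, adjusted p = 0.0182 by edgeR). Both ETV4 KD libraries were above both Ctrl libraries for each gene, although EGR2 missed the threshold without Ctrl replicate 1 (log2 fold change 0.84, adjusted p = 0.109 by edgeR). EGR3 shares its span with an annotated long non-coding RNA of the opposite strand.

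FOS and FOSL1, lower in crowded hESCs, were higher after ETV4 KD. FOS was at 1.70 and 1.93 FPKM with shControl and 5.06 and 6.32 FPKM with shETV4 (log2 fold change 1.65 ± 0.17 SE, adjusted p = 0.00102 by edgeR). FOSL1 was at 4.10 and 4.17 FPKM against 9.41 and 12.1 FPKM (log2 fold change 1.40 ± 0.16 SE, adjusted p = 0.00136 by edgeR). The shETV4 libraries were clear of the shControl libraries for both genes, by more than the gap between replicates. FOSL2 was at 0.685 and 0.740 FPKM against 0.842 and 1.06 FPKM, and did not pass the test (log2 fold change 0.42, 95% interval 0.01 to 0.83, adjusted p = 0.127 by edgeR). It passed when ETV4 KD replicate 1 was left out (log2 fold change 0.61, adjusted p = 0.0187 by edgeR), but not in the other 3 fits that left out 1 library (adjusted p from 0.259 to 0.441).

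Of the JUN family, JUNB was upregulated, JUN downregulated and JUND not called after ETV4 KD. JUNB was at 1.69 and 1.34 FPKM with shControl and 2.85 and 3.93 FPKM with shETV4 (log2 fold change 1.17 ± 0.23 SE, adjusted p = 0.0108 by edgeR). JUN was at 7.07 and 6.38 FPKM against 3.18 and 4.67 FPKM, the only member downregulated there by the rule (log2 fold change -0.77 ± 0.18 SE, adjusted p = 0.0222 by edgeR). Its shETV4 libraries were both lower but again apart from each other, and without ETV4 KD replicate 1 the log2 fold change was -0.49, just under the size required. JUND was at 15.4 and 14.4 FPKM against 13.1 and 15.5 FPKM, with overlapping groups (log2 fold change -0.06, 95% interval -0.33 to 0.21, adjusted p = 0.758 by edgeR). ATF3 was at 8.71 and 8.77 FPKM with shControl and 13.7 and 16.3 FPKM with shETV4, higher in both libraries (log2 fold change 0.80 ± 0.12 SE, adjusted p = 0.00439 by edgeR).

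**Figure D2:**
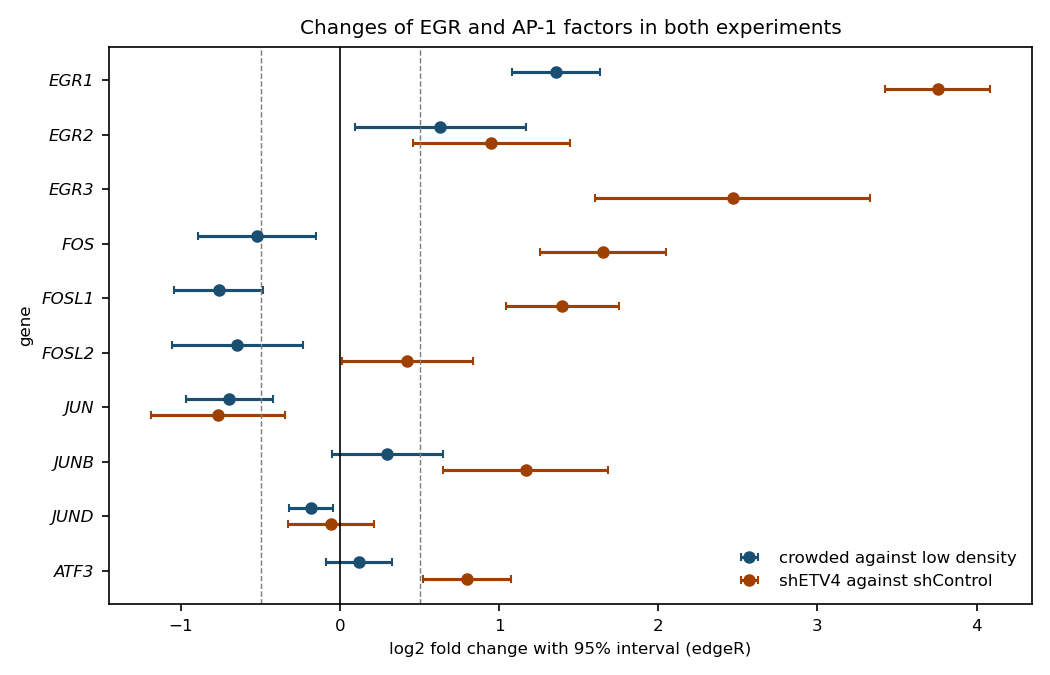
Log2 fold change of each member after crowding and after ETV4 KD by edgeR, with 95% intervals as bars, a line at 0 and dashed lines at the minimum size of a call, 0.5 in either direction. FOS and FOSL1 lie below 0 after crowding (-0.52 and -0.76) and above 0 after ETV4 KD (1.65 and 1.40), whereas JUN lies below 0 in both (-0.70 and -0.77).

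Whether a member responded differently to ETV4 KD than to crowding was tested as an interaction in 1 edgeR fit of all 8 libraries. Of the 8 members that could be tested besides EGR1, 5 were called, each with the more positive response to ETV4 KD, against 12.5% of 17790 genes called in that direction, 15% in the opposite and 27.5% in either. The difference was 2.18 (95% interval 1.66 to 2.70, adjusted p = 4.43e-05) for FOS and 2.17 (1.71 to 2.62, adjusted p = 1.67e-05) for FOSL1 on the log2 scale. For FOSL2 it was 1.08 (0.48 to 1.67, adjusted p = 0.00826), for JUNB 0.88 (0.24 to 1.51, adjusted p = 0.0322) and for ATF3 0.69 (0.35 to 1.03, adjusted p = 0.00454). FOS and FOSL1 thus parted most between the experiments, whereas the call of JUNB was lost in 5 of the 8 fits that left out 1 library, with adjusted p up to 0.1496.

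EGR2, JUN and JUND were not called as different between the experiments. The difference was 0.33 for EGR2 (95% interval -0.34 to 1.00, adjusted p = 0.429), -0.07 for JUN (-0.64 to 0.51, adjusted p = 0.868) and 0.13 for JUND (-0.16 to 0.42, adjusted p = 0.469, all by edgeR). The intervals of EGR2 and JUN leave room for differences of over 0.5 on the log2 scale. For EGR1 the difference was 2.40 ± 0.18 (SE), given without a test. The experiments differ in the culture and the hairpin vector as well as in the treatment, and these cannot be told apart.

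Set beside EGR1, every other member moved less in the direction of an increase. After crowding, the log2 fold change of EGR1 exceeded that of EGR2 by 0.73, of JUNB by 1.06 and of ATF3 by 1.24, and the gap was 1.54 for JUND. It was 1.88 for FOS, 2.00 for FOSL2, 2.05 for JUN and 2.12 for FOSL1. EGR2 was thus the closest to EGR1 at high density and FOSL1 the farthest. After ETV4 KD the closest was EGR3, with a gap of 1.29, followed by FOS (2.102), FOSL1 (2.36), JUNB (2.59), EGR2 (2.80) and ATF3 (2.96). The gap was 3.33 for FOSL2, 3.81 for JUND and 4.52 for JUN. FOSL1, the farthest from EGR1 at high density, was among the closest 3 after ETV4 KD, where 4 members were closer than EGR2.

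The balance of EGR1 to JUN shows how far the members parted within single libraries. Its FPKM was 0.217 and 0.229 times that of JUN at low density, against 0.814 and 1.08 times in crowded hESCs. With shControl it was at 0.284 and 0.326 times, and with shETV4 at 10.02 and 4.996 times. The ratio of EGR1 to FOSL1 was 0.224 and 0.246 at low density, 1.16 and 0.904 in crowded hESCs, 0.490 and 0.498 with shControl and 3.39 and 1.93 with shETV4. For both genes the ratios in the treated libraries were above those in their controls, as they were for every other member tested. Since EGR1 was selected on its rise, these ratios are a description and nothing particular to JUN or FOSL1.

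The order of the members by level, per transcript length, changed mainly through EGR1. JUND was the highest member by FPKM at low density, at high density and with shControl, followed by ATF3. EGR1 was 7th of 9 at low density and 4th of 9 at high density, where its range overlapped those of JUN and FOSL1. With shControl it was 5th of 10, and with shETV4 it was 1st, at 27.6 ± 6.08 FPKM (SD, n = 2). ATF3 (13.7 and 16.3 FPKM) and JUND (13.1 and 15.5 FPKM) came next there, with overlapping ranges. EGR3 was the lowest member in the knockdown experiment, and EGR2 and FOSL2 were the lowest 2 members in the crowding experiment.

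The genes whose pattern over the 8 libraries was most like that of EGR1 did not include the members that could be ranked. EGR3, the closest member after ETV4 KD, was not ranked because it had no row in the crowding table. Likeness was the Euclidean distance between log2 CPM values, each less the control mean of its experiment, over 15972 genes with enough reads in both tables. The nearest were FOXB2 (distance 1.41), SGMS2 (1.44), FEZF1 (1.89), OTX2 (2.01), CUZD1 (2.16), HHIP (2.25), DDIT3 (2.34), JAKMIP2-AS1 (2.35), SEMA6D (2.40) and TRPC6 (2.62). Among them are the forkhead gene FOXB2, the forebrain factors FEZF1 and OTX2, and DDIT3, a stress-induced bZIP factor also called CHOP. Of these genes, OTX2 went from 10.99 to 15.8 FPKM with crowding and from 2.66 to 17.6 FPKM with ETV4 KD, as group means, and DDIT3 from 3.05 to 5.50 FPKM and from 5.75 to 28.0 FPKM. FOXB2, SGMS2, FEZF1, HHIP and SEMA6D stayed under 2 FPKM in each group mean. Among the members ranked, JUNB was nearest at rank 124, then FOS at 127 and EGR2 at 157, whereas FOSL2 (6283), JUND (10318) and JUN (15548) were far down. The points share libraries and controls within each experiment, and the distances are a description of these 8 libraries.

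The wider group of immediate-early genes, among them IER, NR4A, DUSP, KLF and CCN genes, also parted between the experiments. After crowding, 2 of the 29 tested were upregulated and 10 downregulated, against 10.7% and 5.47% of all genes, with a median log2 fold change of -0.42 against 0.00 over all genes. IER3, an ERK-induced survival factor, had a log2 fold change of -1.91, and ARC, known from synaptic plasticity, of -1.60. The matricellular YAP targets CCN1 and CCN2 followed at -1.32 and -1.30. RHOB (-0.81), DUSP2 (-0.79) and DUSP5 (-0.76), the DUSP genes encoding phosphatases of MAP kinases, were downregulated too, and CSRNP1 was upregulated (0.72). The other upregulated gene, NR4A1 (0.51), was named after its value was seen.

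After ETV4 KD, 8 of the 29 were upregulated and 2 downregulated, against 5.88% and 7.1% of all genes, with a median of 0.26 against 0.00. PHLDA1 went from 16.2 ± 0.995 to 42.0 ± 1.67 FPKM (SD, n = 2 in each group, log2 fold change 1.38, adjusted p = 1.61e-04 by edgeR). PPP1R15A, a stress-induced phosphatase subunit also called GADD34, had a log2 fold change of 1.27, KLF4 of 1.21 and the antiproliferative BTG2 of 1.04. ID1 (0.75), the mRNA-decay factor ZFP36 (0.71) and CCN2 (0.54) were upregulated as well, and DUSP5 (-0.52) was downregulated. The second gene downregulated was ZFP36L1 (-0.50), named after its value was seen.

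In the test of the difference, 14 of 28 immediate-early genes were called by edgeR, each with the more positive response to ETV4 KD (12.5% of all genes were called in that direction), with a median difference of 0.58 against 0.00 over all genes. The difference was 2.08 for PHLDA1 (adjusted p = 5.25e-07), 1.84 for CCN2 (adjusted p = 2.59e-06) and 1.83 for IER3 (adjusted p = 4.32e-05). DUSP5, lower in both experiments, was not called (difference 0.25, adjusted p = 0.0938). FOS and FOSL1, at 2.18 and 2.17, lay above each of these in the size of the difference, and EGR1 at 2.40.

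**Figure D3:**
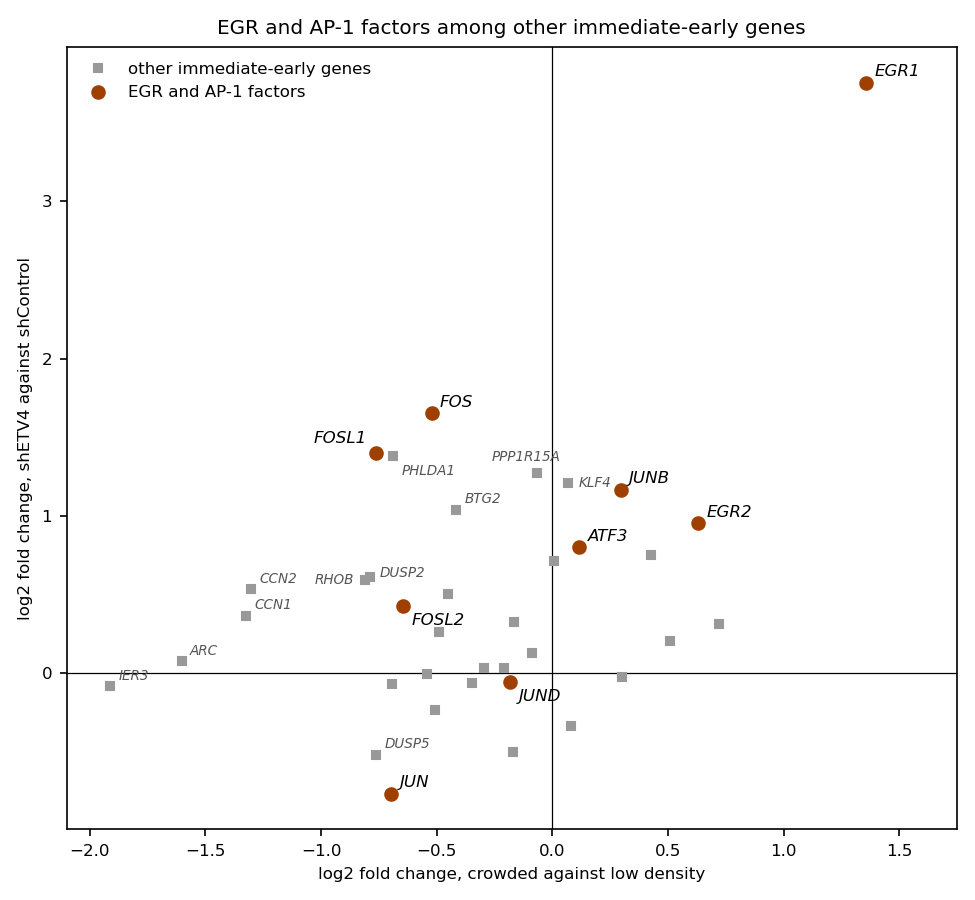
Log2 fold change after crowding (horizontal) against that after ETV4 KD (vertical) for 9 members and the 28 other immediate-early genes tested in both tables, 1 point per gene, by edgeR. EGR1 stands alone at the upper right (1.36 and 3.76), FOS and FOSL1 lie to the left of and above 0 with PHLDA1, and JUN lies below and left of 0 with DUSP5.

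Among 15 relatives and partners tested, the EGR corepressor NAB2, which EGR factors induce and which binds them in turn, was upregulated in both experiments. NAB2 went from 6.05 to 9.79 FPKM with crowding (log2 fold change 0.65 ± 0.08 SE, adjusted p = 1.99e-06 by edgeR) and from 5.39 to 9.17 FPKM with ETV4 KD (0.77 ± 0.11 SE, adjusted p = 0.00349 by edgeR), as group means. Its responses were not called as different (difference 0.13, adjusted p = 0.442 by edgeR). MAFF, a small MAF protein that pairs with FOS proteins, was downregulated with crowding (-0.85) and upregulated with ETV4 KD (0.66), and these responses differed (difference 1.52, adjusted p = 2.04e-04 by edgeR). CREM, a cyclic AMP-response factor, was upregulated with ETV4 KD (0.51). In all, 2 of the 15 were upregulated and 1 was downregulated after crowding, and 3 were upregulated after ETV4 KD, beside 16.1% and 13% of all genes called in either direction.

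Genes upstream of the members were looked at next. Of SRF and its cofactors, 0 of 6 were called by edgeR or DESeq2 in either experiment. At an unadjusted p below 0.05 with no minimum fold change, 2 were higher and 2 lower after crowding and 1 was higher after ETV4 KD. With crowding, SRF had a log2 fold change of -0.42 (adjusted p = 1.39e-04) and ELK4 of 0.23 (adjusted p = 0.0126, both by edgeR). Both were under the size required for a call. Of 26 genes of the MAP kinase cascade, 2 were upregulated and 1 downregulated after crowding, and 1 was upregulated and 2 downregulated after ETV4 KD, near the 16.1% and 13% of all genes called. At an unadjusted p below 0.05 with no minimum fold change, 9 were higher and 6 lower after crowding, and 4 were higher and 5 lower after ETV4 KD. Even at an adjusted p below 0.05 by edgeR, 39.7% of all genes passed after crowding and 21.5% after ETV4 KD with no minimum fold change. HRAS was called in both experiments, at -0.97 after crowding and 0.57 after ETV4 KD. The other genes called were MAPK11 (0.70) and RPS6KA5 (0.95) after crowding. After ETV4 KD they were the p38-branch genes MAPK13 (-0.82) and MAP2K6 (-1.41). RPS6KA5, at group means of 0.124 and 0.241 FPKM, was named after its value was seen.

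The summed level of negative-feedback genes of ERK signalling was lower in both experiments, opposite to EGR1. Their summed level went from 155 to 157 FPKM at low density to 96.5 to 97.5 FPKM at high density, and from 188 to 196 FPKM with shControl to 120 to 140 FPKM with shETV4. DUSP6 and SPRY4 weighed most in these sums. As group means, DUSP6 went from 38.7 to 12.7 FPKM with crowding and from 37.5 to 19.1 FPKM with ETV4 KD. SPRY4 went from 47.5 to 28.8 FPKM and from 75.5 to 44.3 FPKM. Of the 10 genes, 8 lay below 0 in log2 fold change and 2 above after crowding, and 7 below and 3 above after ETV4 KD. After crowding, 4 of 10 were downregulated, against 5.47% of all genes, namely the ERK phosphatase gene DUSP6 (-1.67), SPRY4 (-0.78), DUSP5 (-0.76) and IL17RD (-0.70). After ETV4 KD, 3 were downregulated, DUSP6 (-0.97), SPRY4 (-0.77) and DUSP5 (-0.52), and 2 were upregulated, DUSP4 (0.63) and SPRED3 (1.20). Of all genes, 7.1% were downregulated and 5.88% upregulated there. SPRED3, the largest change of the list after ETV4 KD, was at group means of 0.466 and 1.08 FPKM and was named after its value was seen. FOSL1, itself a known target of ERK output, was downregulated with these genes after crowding but upregulated after ETV4 KD.

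Heat shock genes, which many stresses in culture or handling induce, were called at about the share of all genes. After crowding, 1 of 10 was upregulated (HSPB1, 0.59) and 1 downregulated (HSPA8, -0.55), against 16.1% of all genes in either direction. At an unadjusted p below 0.05 by edgeR with no minimum fold change, 1 was higher and 5 were lower. Even at an adjusted p below 0.05, 39.7% of all genes passed with no minimum fold change. After ETV4 KD 1 was downregulated (HSPE1, -0.85), against 13% of all genes in either direction. Their summed level was 2943 to 3009 FPKM at low density against 2465 to 2561 FPKM at high density, and 2301 to 2459 FPKM with shControl against 2055 to 2124 FPKM with shETV4. Of the 14 pluripotency markers, none was called after crowding by edgeR or DESeq2, against 16.1% of all genes by edgeR. At an unadjusted p below 0.05 by edgeR, 5 were higher and 4 lower. After ETV4 KD, 1 of the 14 was upregulated (LIN28A) and 3 were downregulated (DNMT3B, TDGF1 and TERF1), against 5.88% and 7.1% of all genes.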

How the data were processed

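Poly-A RNA of 8 H9 libraries was sequenced with a stranded kit. The authors trimmed the reads with Trimmomatic, aligned them to GRCh37 (HISAT2 2.1.0 in the submitters' processing notes) and assembled known transcripts with StringTie 2.1.3b. They deposited 1 table per experiment, holding unnormalized read counts of genes and FPKM values, which the authors normalized by transcript length and mapped reads in each table separately. Each gene in a table has at least 1 read in each of its 4 libraries. The tables also hold the authors' fold changes and p-values, which were not used, nor were 16 further columns of per-sample values. The columns named Test were taken as ETV4 KD from the name of their table.

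The members and gene lists were chosen with earlier results of these data known. Counts were tested with edgeR 4.0.16 in R 4.3.3 (filterByExpr, TMM, robust quasi-likelihood test, Benjamini-Hochberg adjustment over all genes tested), within each table, and for the difference between the experiments in 1 fit of the genes in both. Calls required an absolute log2 value over 0.5 at an adjusted p below 0.05. The paper's methods name DESeq2, which is an alternative here (DESeq2 1.42.0). Other alternatives were DESeq2 size factors, no filter on low counts, 10 counts per library at least, a block for the replicate number, other thresholds, limma 3.58.1 on log2(FPKM + 0.5) with a mean FPKM of at least 0.5, or with a pseudocount of 0.1 or 1 or without the minimum, and leaving out each library. The scripts were tested on simulated counts. With 2 libraries against 2, an exact two-sided permutation test of a single gene cannot go below 0.333. Of each list, up to 8 genes called in an experiment with a mean FPKM of at least 1 were named, by size of change, and for EGR1 the 10 nearest genes with a mean of at least 20 counts per library in each table (log2 CPM with a prior count of 2). Positions are from GENCODE v44 lifted to GRCh37. Intervals cover 95%. At 50359703 counts or more per library, only the rarest members, EGR3 above all, were limited by depth.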

Additional observations from a re-analysis of the deposited data

How the results depend on the processing

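With an absolute log2 value over 1, the called members went from 4 to 0 after crowding, from 7 to 4 after ETV4 KD (EGR3, FOS, FOSL1 and JUNB) and from 5 to 3 in the difference between the experiments (FOS, FOSL1 and FOSL2). None of the 8 members was called after crowding at that size by edgeR, since none had a log2 fold change beyond 1. At an unadjusted p below 0.05 by edgeR with no minimum fold change, 1 was higher and 5 were lower, a count given without the share over all genes. With limma on log2(FPKM + 0.5), on log2(FPKM + 0.1), on log2(FPKM + 1) and on log2(FPKM + 0.5) without a minimum FPKM, 2 members were called after crowding, FOSL1 and JUN in each. In the settings with the minimum, FOSL2 and EGR2 fell below it and were not tested. FOS had adjusted p from 0.0371 to 0.0392 by limma there but was under the size required. Without the minimum, FOSL2 came to -0.28 and FOS to -0.35, neither called. A pseudocount shrinks the changes of low genes by its construction: EGR1 came to 0.93 after crowding and 3.22 after ETV4 KD with a pseudocount of 1, and EGR3 to 0.41 with 0.5. Leaving out 1 library gave 2 to 4 called members after crowding (2 without low-density replicate 1 and 2 without crowded replicate 2), 6 to 7 after ETV4 KD and 4 to 5 in the difference. EGR1 then ranged from 1.32 to 1.40 after crowding and from 3.55 to 3.94 after ETV4 KD. Without 1 library, JUND after ETV4 KD ranged from -0.21 to 0.09 and turned to 0.0054 (without Ctrl replicate 1) and 0.086 (without ETV4 KD replicate 1), the difference for JUN ranged from -0.40 to 0.21 and turned to 0.19 (without crowded replicate 1), 0.018 (without Ctrl replicate 1) and 0.21 (without ETV4 KD replicate 1), and that for JUND ranged from -0.03 to 0.28 and turned to -0.0287 (without ETV4 KD replicate 2). The cause was not tested. DESeq2, its size factors and the filters on low counts called the same members as the main test.

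The replicate numbers are not shown to pair the libraries: same-numbered libraries deviated together with a correlation of -0.041 in the crowding experiment and 0.086 in the knockdown experiment, and with the replicate block 4, 7 and 5 members were called, the same genes. Over all genes, calls went from 2851 to 1135 after crowding, from 2321 to 761 after ETV4 KD and from 4890 to 2142 in the difference with an absolute log2 value over 1, and to 7016 and 3847 in the single experiments with no minimum. With limma they came to 1717 (pseudocount 0.5), 1256 (pseudocount 1) and 1839 (no minimum FPKM) after crowding, and to 1325 (pseudocount 1) and 1502 (no minimum FPKM) after ETV4 KD. EGR3, on 10 to 59 reads per library, is the member most limited by depth.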
